A study of Bos taurus with 90 samples.

Results

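The microRNAs (miRNAs) miR-221 and miR-222 were described across 5 tissues of dairy cows. They were chosen by name, as the 2 rows of the deposited expression files that carry these names, out of 388 miRNAs listed in any tissue and 289 listed in all 5. Both were listed in every tissue and were above 1 CPM in 18 of 18 libraries of each. The 90 small RNA libraries came from liver, mammary gland and the epithelium of jejunum, duodenum and rumen of 18 Chinese Holstein cows in mid-lactation. The forage was alfalfa hay, corn stover or rice straw, with 6 libraries per tissue and diet. The design had no other control group, so each diet was compared with the other diets. The unit was CPM, the reads of a miRNA per 1000000 reads mapped to annotated miRNAs. Each library was made from bulk tissue, in which fewer cells of a type and less miRNA per cell cannot be told apart.

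miRNAs are short RNAs that guide Argonaute proteins to target messenger RNAs, mostly through the seed at their 5′ end, and lower the output of those targets. miR-221 and miR-222 are processed from hairpins of a common primary transcript and share their seed, so they are usually described as acting on the same targets. The best known of these are the cyclin-dependent kinase inhibitors p27 and p57, which hold back the cell cycle, and the receptor kinase KIT. In the RefSeq annotation of the ARS-UCD2.0 cattle assembly, MIR221 and MIR222 lie on chromosome X with 0 annotated genes between them, and the locus LOC132344329 spans both. No other row was named after either miRNA, so each was read from 1 row.

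The libraries held 937556 to 15621501 mapped miRNA reads, with a median of 5778304.5. miR-221 was counted with 52 to 10468 reads per library and miR-222 with 24 to 9255. The lowest of these counts, 24 reads of miR-222 in mammary gland on alfalfa hay, replicate 1, gave 25.6 CPM with a 95% exact binomial interval of 16.4 to 38.1 CPM. Such intervals cover counting error only. The tissue labels were checked against marker miRNAs. miR-122, the hepatocyte miRNA, averaged 11021 CPM in liver, was listed in no gut tissue, and averaged 7.88 CPM in mammary gland. The sum of miR-205, miR-203 and miR-31, a list for stratified epithelium, was 38212 CPM in rumen and 278 to 3980 CPM elsewhere, with miR-203 listed nowhere and only 1 of the 3 listed in jejunum. The sum of miR-192, miR-194 and miR-215 was 321899 CPM in duodenum, 231841 in jejunum, 146227 in liver and lower, at 3259 and 2890 CPM, in rumen and mammary gland. The labels call the gut samples epithelium, and in them miR-143 and miR-145, of smooth muscle, summed to means of 163096 to 213239 CPM, against 127209 in liver and 147398 in mammary gland.

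A few libraries stood apart. In mammary gland, 4 libraries were shallow, with 937556 to 2624975 mapped reads against 4421565 to 14328839 in the other 14. They were replicates 1, 4 and 5 on rice straw and replicate 1 on alfalfa hay. In liver, replicate 2 on alfalfa hay held 1525 CPM of miR-205, a miRNA of stratified epithelium, against less than 13 CPM in the other 17 liver libraries. In jejunum, replicates 1, 2 and 6 on corn stover held 221 to 440 CPM outside the listed miRNAs, against 19 to 106 in the other 87 libraries, and 8.13 to 37.7 CPM of miR-31 against 183 to 478 in the other 15 of jejunum. Results that rest on these libraries are given with and without them.

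Both miRNAs were highest in rumen, lower in duodenum and jejunum, lower again in mammary gland, and lowest in liver. miR-221 averaged 1027 ± 288 CPM (SD, n = 18) in rumen, 758 ± 108 in duodenum, 734 ± 104 in jejunum, 240.0 ± 110.5 in mammary gland and 100.0 ± 47.7 in liver. miR-222 averaged 738 ± 190.0 CPM in rumen, 503 ± 94.6 in duodenum, 557 ± 106 in jejunum, 163 ± 70.2 in mammary gland and 102 ± 32.5 in liver. The mean in rumen was 10.3 times that in liver for miR-221 and 7.27 times for miR-222.

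**Figure D1:**
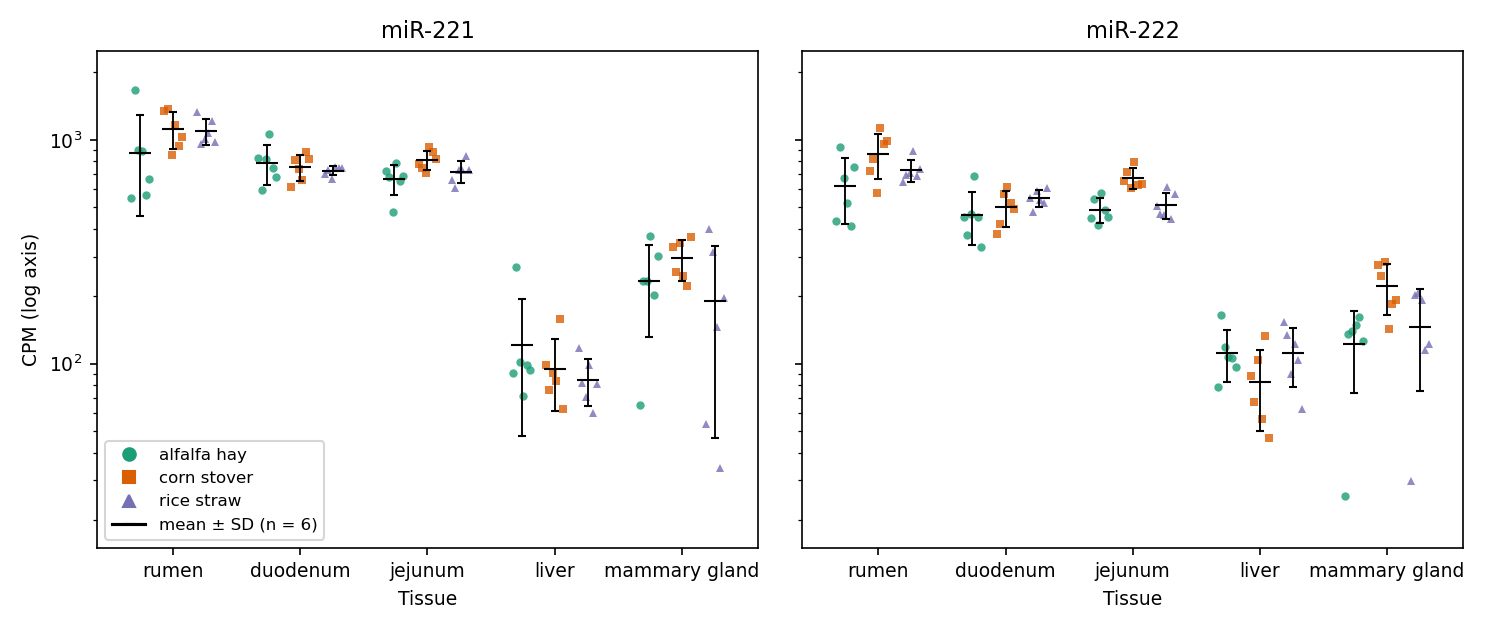
CPM of miR-221 (left) and miR-222 (right) on a log axis, by tissue and diet. Each point is 1 library and the black bars give the mean ± SD of 6. The rumen, duodenum and jejunum libraries lie above all liver and mammary gland libraries for both miRNAs. How many other miRNAs separate in this way was not counted.

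Among single libraries, miR-221 ran from 548 to 1664 CPM in rumen, with a median of 992, from 598 to 1066 in duodenum, with a median of 749, and from 478 to 927 in jejunum, with a median of 732. It ran from 34.0 to 398 CPM in mammary gland, with a median of 240.1, and from 59.8 to 269 in liver, with a median of 90.3. miR-222 ran from 413 to 1124 CPM in rumen, with a median of 719, from 332 to 690.1 in duodenum, with a median of 508, and from 418 to 798 in jejunum, with a median of 558. The 3 gut tissues did not overlap with liver or mammary gland for either miRNA, and how many other miRNAs separate so was not counted. In mammary gland miR-222 ran from 25.6 to 284 CPM around a median of 155, and in liver from 46.6 to 164 around a median of 104. Liver and mammary gland overlapped for both miRNAs, with 7 mammary gland libraries above every liver library for miR-221 and 8 for miR-222.

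By mean CPM, miR-221 ranked 71 of 340 listed miRNAs in rumen, 76 of 338 in duodenum, 77 of 337 in jejunum, 103 of 328 in mammary gland and 134 of 330 in liver. miR-222 ranked 79, 86, 83, 117 and 130 in the same order of tissues. The spread between libraries was smallest in the small intestine, where the coefficient of variation was 14.2% for miR-221 and 18.8% for miR-222 in duodenum, against a median of 20.9% over the miRNAs at 10 CPM or more. In liver it was 47.7% for miR-221 and 32.0% for miR-222, both above the median of 25.1% there. In mammary gland it was 46.0% and 43.1%, near the median of 48.2%.

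Tissues were compared on log2(CPM + 1) with limma in 1 fit of all 90 libraries, and p-values were adjusted over the 289 miRNAs listed in all 5 tissues. On this scale miR-221 was higher in rumen than in liver by 3.39 (SE 0.17, adjusted p = 2.24e-31) and than in mammary gland by 2.28 (adjusted p = 7.09e-21). It was higher in duodenum than in liver by 2.99 and than in mammary gland by 1.89, and higher in jejunum by 2.95 and 1.84, all with adjusted p of 3.86e-16 or less. miR-222 was higher in rumen than in liver by 2.88 (SE 0.16, adjusted p = 4.73e-29) and than in mammary gland by 2.33 (adjusted p = 2.64e-23). It was higher in duodenum than in liver by 2.35 and than in mammary gland by 1.801, and higher in jejunum by 2.49 and 1.95, all with adjusted p of 2.11e-17 or less. Such calls were common, since limma called 84.4% of miRNAs between rumen and liver, 84.8% between rumen and mammary gland, 82.7% between duodenum and either of these tissues, 84.8% between jejunum and liver, and 81.3% between jejunum and mammary gland. The median difference of all 289 miRNAs was 0.47 between rumen and liver and 0.34 between rumen and mammary gland, and the differences of miR-221 and miR-222 were larger. Between rumen and liver that median was -0.21 with upper-quartile scaling and 0.05 with TMM scaling, and both miRNAs stayed higher in rumen with adjusted p below 0.05 under each scaling.

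Liver was below mammary gland, by 1.11 for miR-221 (SE 0.17, adjusted p = 3.64e-08) and by 0.55 for miR-222 (SE 0.16, adjusted p = 0.00185), while limma called 70.2% of miRNAs between them. With upper-quartile scaling the liver value of miR-222 was 0.11 below mammary gland and did not pass (adjusted p = 0.403). Without the 4 shallow mammary gland libraries, the differences were -1.58 and -0.84 (liver minus mammary gland).

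Rumen was above the small intestine by less. For miR-222 the difference was 0.53 from duodenum (SE 0.16, adjusted p = 0.00245), beside 72.7% of miRNAs called and a median of 0.19 over all miRNAs. It was 0.38 from jejunum (adjusted p = 0.0284), where 75.8% of miRNAs were called. For miR-221 the differences were 0.39 from duodenum (SE 0.17, adjusted p = 0.0371) and 0.44 from jejunum (adjusted p = 0.0188). The miR-222 difference between rumen and duodenum held under every alternative tried. The other 3 did not pass with upper-quartile or TMM scaling or with edgeR or DESeq2 on the recovered reads, where they were 0.13 to 0.27. Duodenum and jejunum did not differ beyond their spread, with 0.05 (SE 0.17, adjusted p = 0.879) for miR-221 and -0.15 (SE 0.16, adjusted p = 0.679) for miR-222 as duodenum minus jejunum, while 11.4% of miRNAs were called between them.

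The balance of the pair within a library does not depend on how that library is scaled, since both values share 1 divisor. miR-221 was above miR-222 in 76 of 90 libraries, in 18 of 18 from duodenum, 18 of 18 from jejunum, 16 of 18 from rumen, 16 of 18 from mammary gland and 8 of 18 from liver. The ratio of miR-221 to miR-222 averaged 1.54 ± 0.27 (SD, n = 18) in duodenum, 1.42 ± 0.33 in rumen, 1.34 ± 0.21 in jejunum, 1.57 ± 0.59 in mammary gland and 1.01 ± 0.30 in liver. Liver was thus the tissue with about equal reads of both.

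**Figure D2:**
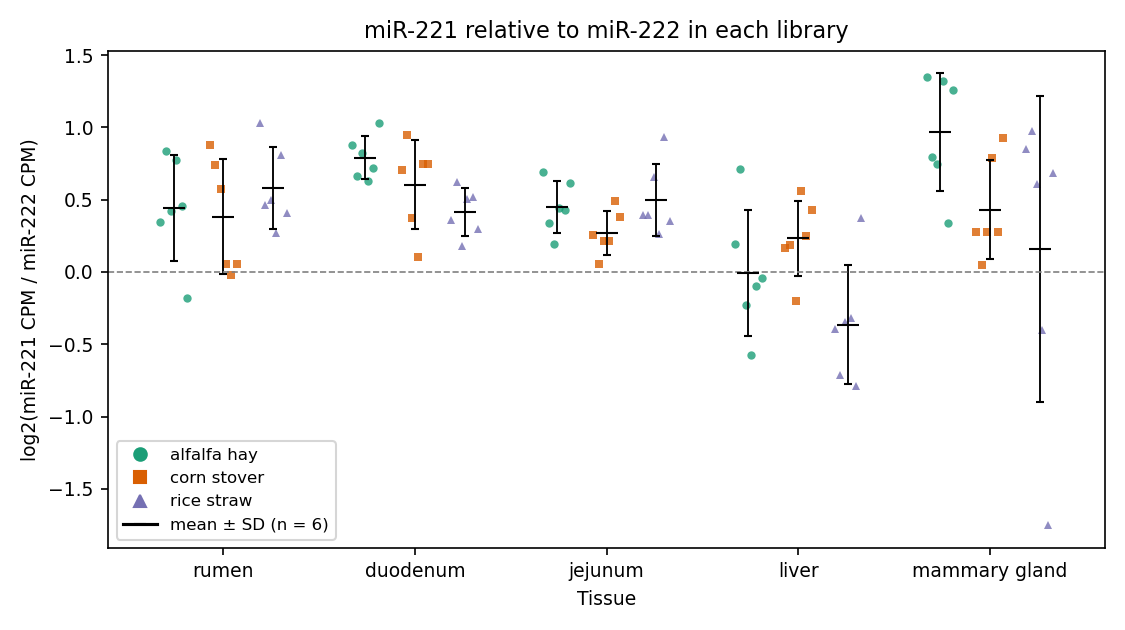
log2 of the ratio of miR-221 to miR-222 CPM by tissue and diet, 1 point per library, with the mean ± SD of 6 as black bars. The dashed line marks equal CPM. All duodenum and jejunum libraries lie above it, and 10 of 18 liver libraries lie below it.

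In permutation tests with 100000 resamples, two-sided and adjusted over 10 pairs of tissues, the mean log2 ratio was lower in liver than in each other tissue. The difference was 0.65 from duodenum (SE 0.12, adjusted p = 0.0002, from the smallest p the resamples can give), 0.51 from rumen (SE 0.13, adjusted p = 0.0016), 0.45 from jejunum (SE 0.11, adjusted p = 0.0016) and 0.57 from mammary gland (SE 0.20, adjusted p = 0.0178). Duodenum was above jejunum by 0.20 (SE 0.08, adjusted p = 0.0366), which became 0.16 and did not pass without the 3 jejunum libraries that stood apart (adjusted p = 0.127). The other 5 pairs did not pass. Without the liver library that held miR-205, the 4 differences from liver were 0.50 to 0.69 and all passed. Without the 4 shallow mammary gland libraries, the permutation test also put jejunum below mammary gland, by 0.26 (adjusted p = 0.0394).

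The ratio varied with diet in duodenum. There it ran from 1.55 to 2.04 on alfalfa hay, with a median of 1.71, from 1.07 to 1.93 on corn stover, with a median of 1.65, and from 1.13 to 1.54 on rice straw, with a median of 1.35. All 6 alfalfa hay libraries were above all 6 rice straw libraries. The mean log2 ratio was 0.38 lower on rice straw (SE 0.09), with p = 0.00216 by a two-sided exact permutation test of 6 against 6, the smallest it allows, and 0.0325 after adjustment over 15 pairs of diets. With any of the 12 libraries left out, the log2 ratio was 0.33 to 0.42 lower and its adjusted p was 0.0649. This is what the smallest p of 5 against 6 gives over 15 pairs when no other pair has a p as small. The level of neither miRNA passed alone between these diets, with -0.09 for miR-221 and 0.28 for miR-222 on the log2 scale as rice straw minus alfalfa hay.

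None of the other 14 pairs of diets passed after adjustment for the ratio. In liver the ratio ran from 0.87 to 1.48 on corn stover and from 0.58 to 1.29 on rice straw, and miR-221 was above miR-222 in 5 of 6 libraries on corn stover and in 1 of 6 on rice straw. The mean log2 ratio fell by 0.60 from corn stover to rice straw (exact permutation p = 0.0238, adjusted p = 0.179), and fell by 0.75 without replicate 6 on rice straw (exact permutation, adjusted p = 0.0325). The unadjusted p of that refit is the smallest of 5 against 6, 0.00433, as in the duodenum refits. Its adjusted p is lower only because the duodenum pair, with all its libraries, had a smaller p in the same adjustment. In mammary gland the ratio averaged 2.02 ± 0.53 on alfalfa hay, 1.38 ± 0.34 on corn stover and 1.33 ± 0.65 on rice straw (SD, n = 6). The difference in mean log2 ratio between alfalfa hay and corn stover was 0.53 (exact permutation p = 0.0455, adjusted p = 0.227).

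For the levels themselves, the clearest difference between diets was that of miR-222 in jejunum. It ran from 611 to 798 CPM on corn stover, with a median of 643, from 418 to 579 on alfalfa hay, with a median of 469, and from 444 to 614 on rice straw, with a median of 485. All 6 corn stover libraries were above all 6 alfalfa hay libraries, and 5 of 6 were above every rice straw library. How many of the other miRNAs separated in this way was not counted. By limma, miR-222 was higher on corn stover than on alfalfa hay by 0.47 (SE 0.11, adjusted p = 0.0053), beside 22% of 337 miRNAs called, and lower on rice straw than on corn stover by 0.40 (SE 0.11, adjusted p = 0.0139), beside 28.8% called. The medians of all miRNAs went the opposite way, with -0.18 for corn stover minus alfalfa hay and 0.18 for rice straw minus corn stover. In the F test over the 3 diets of jejunum, miR-222 passed (F = 10.04, adjusted p = 0.00705) beside 23.7% of miRNAs. Both calls held in each of the 12 fits without a library of the diets compared, at 0.42 to 0.52 and at -0.46 to -0.35, and were lost where all 90 libraries shared 1 spread (adjusted p = 0.342 and 0.384). The 3 corn stover libraries that stood apart held 632 to 720 CPM of miR-222 and the other 3 held 611 to 798. Without the 3, the difference from alfalfa hay was 0.48 and passed (SE 0.15, limma adjusted p = 0.0417), and that of rice straw minus corn stover was -0.41 and did not (adjusted p = 0.0807).

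**Figure D3:**
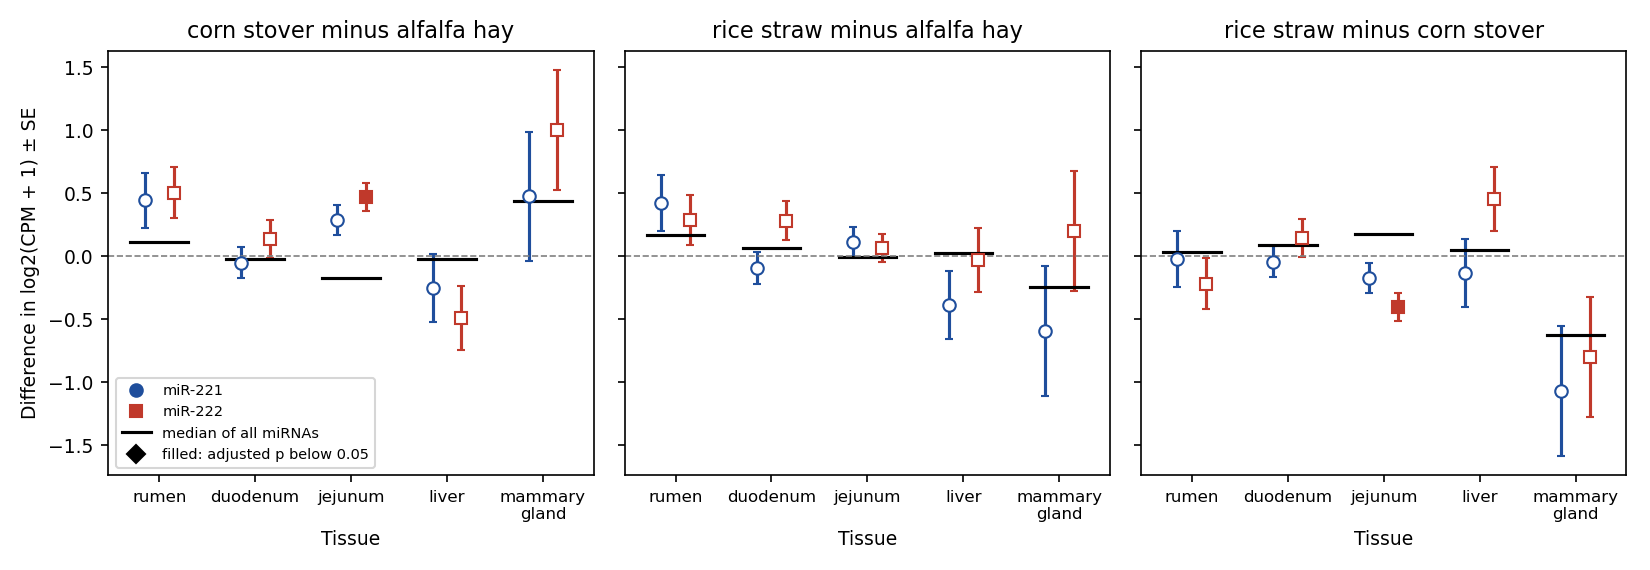
Difference in log2(CPM + 1) between diets by tissue, with the limma SE (n = 6 per diet), for miR-221 (circles) and miR-222 (squares). Filled symbols have an adjusted p below 0.05, and black lines give the median difference of all miRNAs of the tissue. The 2 filled symbols are miR-222 in jejunum, and in mammary gland the members and the median of all miRNAs lie far from 0 in the contrasts with corn stover.

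miR-221 in jejunum ran from 709 to 927 CPM on corn stover, from 478 to 787 on alfalfa hay and from 609 to 848 on rice straw, and the diets overlapped. Its difference was 0.29 for corn stover minus alfalfa hay (SE 0.12, adjusted p = 0.0808) and -0.17 for rice straw minus corn stover (adjusted p = 0.258), neither of which passed by limma. With upper-quartile or TMM scaling and with edgeR or DESeq2, both differences passed, at 0.33 to 0.48 and -0.37 to -0.24. The main fit called 22% and 28.8% of all miRNAs in these contrasts. The shares called under the other settings are not given here, so these calls have no share beside them. A difference between miR-221 and miR-222 in their response was not detected, as the ratio in jejunum did not pass between corn stover and alfalfa hay (-0.18, SE 0.10, exact permutation p = 0.0931, adjusted p = 0.233).

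The marker lists also held calls between the diets of jejunum. The endothelial pair miR-126-3p and miR-126-5p was lower on corn stover, with a summed level of 8000 to 17708 CPM against 18498 to 28030 on alfalfa hay and 19516 to 29441 on rice straw. miR-126-3p fell by 0.59 from alfalfa hay to corn stover (limma adjusted p = 0.0172) and miR-126-5p fell by 0.97 (adjusted p = 0.000783). Of the 7 immune miRNAs, 2 were called lower on corn stover than on alfalfa hay, near the 22% of all miRNAs called, and 3 were called higher on rice straw than on corn stover, beside 28.8%.

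The 9 miRNAs of the miR-17-92 and miR-106b-25 clusters, which are abundant in dividing cells, summed to 15975 to 21584 CPM on corn stover, above the 8046 to 11895 on alfalfa hay and the 9165 to 12353 on rice straw. Of the 9, miR-92a was 1.46 higher on corn stover than on alfalfa hay (limma adjusted p = 1.16e-07), the other 8 did not pass, and the median of the 9 was -0.08 against -0.18 over all miRNAs. Between rice straw and corn stover 1 of the 9 was called higher and 1 lower. miR-31, the 1 listed miRNA of stratified epithelium, was 2.21 higher on rice straw than on corn stover (limma adjusted p = 0.0365). Of the 2 smooth muscle miRNAs, 1 was called lower on corn stover than on each other diet. Their sum, most of it miR-143, went the other way. Its mean was 247938 CPM on corn stover, against 200755 on alfalfa hay and 191025 on rice straw. Without the 3 libraries that stood apart, miR-31 and the immune miRNAs held no call. In each contrast with corn stover, 1 endothelial miRNA and 1 of the 9 cluster miRNAs were called. Of the 5 epithelial miRNAs of the miR-200 family 1, and of the 2 smooth muscle miRNAs 1, was called lower on corn stover than on alfalfa hay. Of 3 red blood cell miRNAs, 2 were called lower on rice straw than on corn stover. In these fits limma called 37 and 35 miRNAs in place of 74 and 97. The part of these changes in the miR-222 result was not tested.

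In rumen, both miRNAs had their lowest mean on alfalfa hay, with 874 ± 417 CPM for miR-221 and 622 ± 203 for miR-222 (SD, n = 6), against 1116 ± 210 and 864 ± 197 on corn stover. The differences of 0.44 (SE 0.22, adjusted p = 0.317) and 0.50 (SE 0.20, adjusted p = 0.182) did not pass by limma, and 0% of 340 miRNAs were called (56 at an unadjusted p under 0.05, 3 by edgeR, 8 by DESeq2). Without replicate 2 on alfalfa hay, whose 1664 CPM of miR-221 was the highest of all libraries, miR-221 was 0.65 higher on corn stover (adjusted p = 0.0319) and 0.63 higher on rice straw (adjusted p = 0.0226) than on alfalfa hay, and miR-222 was 0.63 higher on corn stover (adjusted p = 0.0415). Between rice straw and alfalfa hay, 2.65% of miRNAs were called in the fit of all libraries. The share of all miRNAs called without replicate 2 on alfalfa hay was not counted, so these calls have no share beside them.

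No diet contrast of either miRNA passed in duodenum, liver or mammary gland. The largest values stood in mammary gland, where miR-221 was 1.07 lower on rice straw than on corn stover (SE 0.52, adjusted p = 0.125) and miR-222 was 0.80 lower (SE 0.48, adjusted p = 0.218), beside 25% of miRNAs called and a median of -0.63 over all miRNAs. Without the 4 shallow libraries, 3 of which were on rice straw, the miR-221 value was 0.0070. Without replicate 2 on rice straw alone the miR-221 value was -1.375 and passed (limma, adjusted p = 0.045), and the share of all miRNAs called in that fit was not counted. Between corn stover and alfalfa hay, miR-222 was 1.002 higher (SE 0.48, adjusted p = 0.414). Over 11 contrasts of diets, that of rumen above among them, limma called 0% of miRNAs, while 10 to 56 had an unadjusted p under 0.05, edgeR called 0 to 3 and DESeq2 called 0 to 13. In the limma F tests, the calls were 1.47% of miRNAs in rumen, 3.66% in mammary gland and 0% in duodenum and liver, where 37 and 17 had an unadjusted p under 0.05, and neither miR-221 nor miR-222 was among them.

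Whether diets differed in a different way between tissues was tested as an interaction in the fit of all 90 libraries, where 45.7% of 289 miRNAs passed. miR-222 missed the threshold narrowly (F = 2.38, adjusted p = 0.0501) and miR-221 did not pass (F = 1.66, adjusted p = 0.199). Under 6 alternatives miR-222 passed, as did many miRNAs. Those passing were 92 of 289 with upper-quartile scaling, 97 with TMM scaling and 137 with a pseudocount of 5. They were 133 with a replicate block and 128 without the 4 shallow mammary gland libraries. Over miRNAs with a mean of at least 10 CPM they were 124 of 238. miR-222 did not pass with a pseudocount of 0.1 (adjusted p = 0.0516), without the liver library that held miR-205 (adjusted p = 0.0836) or without the 3 jejunum libraries that stood apart (adjusted p = 0.0753).

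Across the 18 libraries of a tissue, the log2 levels of miR-221 and miR-222 rose and fell together in rumen, jejunum, liver and mammary gland. Pearson's r was 0.66 in rumen (permutation test, adjusted over 5 tissues, p = 0.00658; Spearman's rho 0.54, adjusted p = 0.0298), 0.64 in jejunum (adjusted p = 0.00658; rho 0.60, adjusted p = 0.0161) and 0.62 in liver (adjusted p = 0.00658; rho 0.61, adjusted p = 0.0161). In mammary gland r was 0.73 (permutation test, adjusted p = 0.00658) and rho was 0.66 (adjusted p = 0.0161). In duodenum r was 0.45 and did not pass (permutation test, adjusted p = 0.0637), and rho was 0.18 (adjusted p = 0.469).

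**Figure D4:**
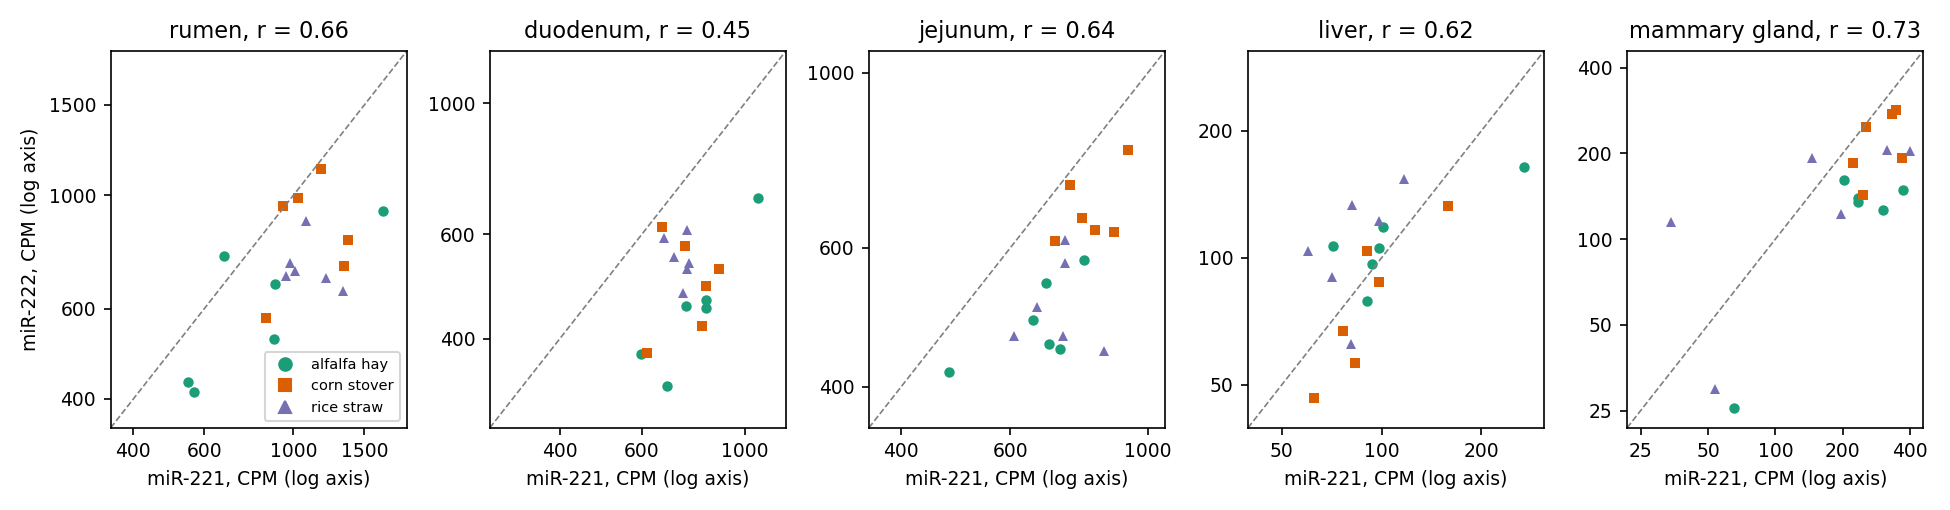
miR-222 against miR-221 in CPM on log axes, 1 panel per tissue and 1 point per library, with diets by colour and shape, and Pearson's r of the log2 levels in the title. The dashed line marks equal CPM. Points in liver lie on both sides of the line, and in mammary gland a few libraries with low levels of both lie far from the rest.

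Much of this relation rested on a few libraries. Without the 2 libraries farthest from the median of miR-221, r was 0.31 in rumen, 0.08 in duodenum, 0.42 in jejunum and 0.50 in liver, none of which passed (adjusted p of 0.113 to 0.764), and 0.79 in mammary gland (adjusted p = 0.0312, permutation test). In mammary gland the 4 shallow libraries held the 4 lowest levels of miR-221, and without them r was 0.49 over 14 libraries (permutation test, adjusted p = 0.0783). Without the liver library that held miR-205, r in liver was 0.55 (adjusted p = 0.0284). Taken as deviations from the diet mean, r was 0.70 in liver and 0.73 in mammary gland, which passed, and 0.56 in rumen, 0.60 in duodenum and 0.41 in jejunum, which did not. With upper-quartile scaling r was 0.79 in jejunum, 0.54 in liver, 0.53 in rumen, 0.32 in mammary gland and 0.21 in duodenum.

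Within the 6 libraries of a diet, given as a description, r was highest on alfalfa hay in duodenum (0.91), mammary gland (0.92), jejunum (0.68) and rumen (0.79). In liver it was 0.89 on corn stover, 0.81 on alfalfa hay and 0.51 on rice straw. On rice straw it was -0.36 in rumen, -0.31 in duodenum and -0.02 in jejunum.

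The 4 shallow mammary gland libraries had the lowest levels of miR-221 and differed in other miRNAs. miR-222 was low in 3 of them and within the range of the others in replicate 4 on rice straw. Replicate 5 on rice straw held 34.0 CPM of miR-221 and 115 CPM of miR-222. Replicate 1 on rice straw held 53.9 and 29.9 CPM. Replicate 1 on alfalfa hay held 65.1 and 25.6 CPM, and replicate 4 on rice straw held 146 and 193 CPM. In the other 14 libraries miR-221 ran from 197 to 398 CPM and miR-222 from 122 to 284. The 4 miRNAs of fibroblasts and stroma, miR-199a-3p, miR-199a-5p, miR-199b and miR-214, summed to 730 to 1648 CPM in the 4 libraries and to 2845 to 5608 in the other 14. The 3 miRNAs of red blood cells, miR-451, miR-144 and miR-486, summed to 3251 to 4241 CPM in the 4 libraries and to 1070 to 2938 in the other 14. Most of the red blood cell sum was miR-486. Over the 18 mammary gland libraries it averaged 1932 CPM, against 282 for miR-451 and 13.8 for miR-144. These 3 were not compared singly between the 4 libraries and the rest. The 4 libraries thus had low miR-221, a low stromal sum and a high red blood cell sum together. The part of cell makeup or depth in the low values was not tested.

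**Figure D5:**
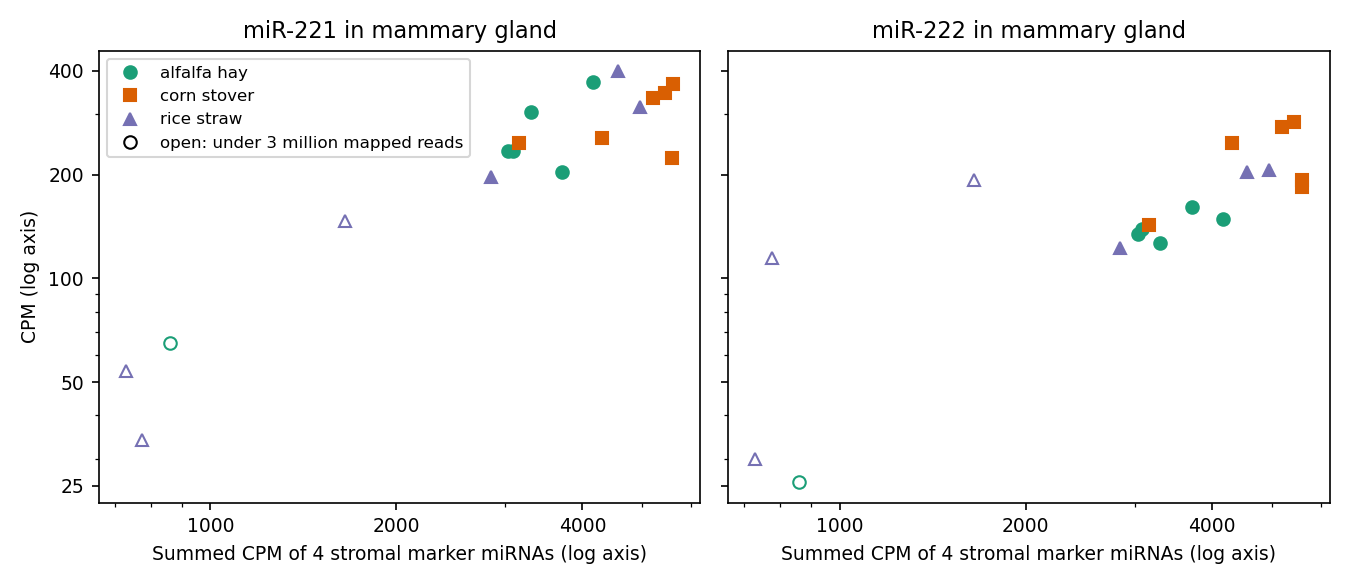
miR-221 (left) and miR-222 (right) against the summed CPM of 4 stromal marker miRNAs in the 18 mammary gland libraries, on log axes. Open symbols are the 4 shallow libraries, which lie at 730 to 1648 CPM of the stromal sum, below all others.

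Of the 94 relations between a member and a marker list within a tissue, taken as deviations from the diet mean and permuted within diets, 9 passed by Pearson's r and 2 of these also by Spearman's rho. These 2 were miR-221 with the stromal and with the red blood cell list in mammary gland. For the stromal list Pearson's r was 0.94 (permutation test, adjusted p = 0.00846), Spearman's rho was 0.85 (adjusted p = 0.0179) and r was 0.92 without the 2 farthest libraries and 0.89 with upper-quartile scaling. Over the 14 deeper mammary gland libraries r was 0.62 and did not pass (permutation test, adjusted p = 0.307). For miR-222 and the stromal list r was 0.81 (adjusted p = 0.0347), with rho 0.63 (adjusted p = 0.135) and r 0.60 without the 2 farthest libraries. miR-221 fell as the red blood cell sum, most of it miR-486, rose in mammary gland. For this relation r was -0.83 (permutation test, adjusted p = 0.00376) and rho was -0.87 (adjusted p = 0.0094). Its r was -0.76 without the 2 farthest libraries and -0.56 (adjusted p = 0.256) over the 14 deeper ones. The other 6 relations that passed by Pearson's r alone were those of miR-221 with the immune list (0.82) and of miR-222 with the stratified epithelium list (0.84) in mammary gland, of miR-221 with the stromal list in jejunum (0.71) and with the smooth muscle list in rumen (-0.62), and the 2 in duodenum given next.

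With the sum of the miR-17-92 and miR-106b-25 clusters, r in duodenum was 0.76 for miR-221 (permutation test, adjusted p = 0.0335; rho 0.65, adjusted p = 0.0808) and 0.74 for miR-222 (adjusted p = 0.0347; rho 0.55, adjusted p = 0.146), and 0.50 and 0.51 without the 2 farthest libraries. With the libraries that stood apart left out of the other tissues, the adjusted p of both in duodenum was 0.0924 (permutation test). In rumen r was 0.70 and 0.71 and in jejunum 0.71 and 0.63, which did not pass after adjustment (permutation test, adjusted p of 0.0506 to 0.0679). In liver r was -0.26 and -0.15, and miR-92a made up 15199 of the mean sum of 19161 CPM there. miR-17-5p and miR-106b of these clusters, named below as most like miR-221, went the other way. Their lowest r with miR-221 in any tissue was 0.49 and 0.38. The other members were not taken singly. With upper-quartile scaling none of the relations with the cluster sum passed (adjusted p of 0.204 to 0.821). Both quantities of a library share its divisor.

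The liver library that held miR-205 also had the highest levels of the pair in liver, at 269 CPM of miR-221 and 164 CPM of miR-222. The other 17 ran from 59.8 to 158 and from 46.6 to 154 CPM. The 5 epithelial miRNAs of the miR-200 family, which includes miR-141 and miR-429, summed to 1896 CPM in it and to 247 to 737 in the others. The part of this in its miR-221 level was not tested.

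Across all 90 libraries, the miRNA most like miR-221 in log2 level was miR-222, and the reverse, with r = 0.94 over 288 candidates. This is a description, since libraries of a tissue share their level. Next for both came miR-15b, of the miR-15 and miR-16 family that restrains the cell cycle, with r = 0.92. Its mean was 261 CPM in rumen, 188 in duodenum and 186 in jejunum, against 42.2 in liver and 41.2 in mammary gland. For miR-221 followed miR-6119-3p (0.91), miR-582 (0.91) and miR-429 (0.89), an epithelial miRNA at 2577 CPM in rumen and 70.2 in liver. For miR-222 followed miR-181d (0.90), miR-9-5p (0.88) and miR-6123 (0.88).

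Within tissues the order was different. By the mean over 5 tissues of r between deviations from the tissue and diet mean, miR-17-5p was most like miR-221 (0.67, from 0.49 to 0.87 by tissue), followed by miR-106b (0.63), miR-155 (0.62), miR-345-3p (0.61) and miR-454 (0.61). miR-17-5p and miR-106b share a seed family and belong to the clusters named above, and miR-155 is a miRNA of activated immune cells. For miR-222 the first was miR-423-3p (0.66, from 0.27 to 0.86 by tissue), followed by miR-224 (0.63), let-7d (0.62), miR-128 (0.62) and miR-423-5p (0.61). The mean r between miR-221 and miR-222 was 0.60, which placed miR-222 ninth for miR-221 and miR-221 sixth for miR-222, so no miRNA was among the first 5 of both.

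The miRNAs of the miR-17-92 and miR-106b-25 clusters were also compared between tissues. Of their 9 members, 9 were higher by limma in rumen than in duodenum (median 0.67, against 0.19 over all miRNAs, of which 72.7% were called) and 9 were higher in rumen than in mammary gland (median 1.85, against 0.34, with 84.8% called). Between rumen and liver 8 were higher and 1 was lower (median 1.70, against 0.47, with 84.4% called). Between duodenum and jejunum 1 of 9 was called, lower in duodenum, near the 11.4% of all miRNAs. Between liver and mammary gland 2 were higher and 2 were lower, a smaller share than the 70.2% called over all miRNAs. The mean of miR-17-5p was 520 CPM in rumen, 376 in duodenum and 320 in jejunum, against 154 in mammary gland and 138 in liver.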

How the data were processed

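Small RNA was sequenced from 90 samples of 5 tissues. The authors filtered reads with CASAVA 1.8, trimmed them with sRNAbench, aligned them to the bovine precursors of miRBase and divided by the reads mapped to all annotated miRNAs. The deposited values are CPM. The study's text describes them as raw counts, which they are not, since each sample sums to just under 1000000. All 30114 values were whole multiples of the step worth 1 read in their sample (tolerance 0.05 reads), which gave the mapped reads per library, and 3 reads were worth 0.192 to 3.20 CPM.

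limma 3.58.1 in R 4.3.3 (lmFit, eBayes with trend) was fitted on log2(CPM + 1), so folds of low values are understated, with Benjamini-Hochberg adjustment at 0.05. Tissue contrasts averaged the 3 diets of 15 groups. Diets were fitted within each tissue's 18 samples. Ratios and correlations used permutation tests (scipy 1.17.1). Scripts were tested on simulated data. edgeR 4.0.16 and DESeq2 1.42.0 on recovered reads, other scalings, pseudocounts and filters, a replicate block and leaving out libraries were alternatives. The members and lists were chosen with earlier results of these data known. Besides the pair and the marker lists, the named miRNAs are the 5 most like each member by each of 2 measures. Groups came from the labels, which give no batch. The tissues came from the same 18 cows, but the labels do not say that a number marks a cow.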

Additional observations from a re-analysis of the deposited data

Results flagged for a closer look

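In 45 groups of 6 libraries (15 groups, with miR-221, miR-222 and their log2 ratio in each), 5 held a library past Dixon's 95% critical value, and chance alone flags about 1 in 20. In liver on alfalfa hay, miR-221 was 269 CPM in replicate 2 and 71.5 to 101 in the other 5, and this library also held miR-205 far above the rest. In mammary gland on alfalfa hay, miR-222 was 25.6 CPM in replicate 1, the library with the fewest reads, and 127 to 161 in the other 5. In rumen on alfalfa hay, miR-221 was 1664 CPM in replicate 2 and 548 to 901 in the other 5. In rumen on rice straw, miR-222 was 890.2 CPM in replicate 4 and 650.1 to 738 in the other 5. In duodenum on alfalfa hay, miR-222 was 690.1 CPM in replicate 4 and 332 to 465 in the other 5.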

How the results depend on the processing

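Values below are log2 differences unless named otherwise, and the cause of a change was not tested. For the 20 tissue differences in level, 183 values recomputed under an alternative kept direction and side of the threshold, and 13 did not. Rumen minus duodenum for miR-221 lost its call at 0.16 with DESeq2, 0.15 with edgeR, 0.13 with TMM scaling and 0.20 with upper-quartile scaling. Rumen minus jejunum lost it at 0.25, 0.25, 0.23 and 0.27 for miR-221 and at 0.18, 0.18, 0.17 and 0.21 for miR-222, in the same order, and liver minus mammary gland for miR-222 at -0.11 with upper-quartile scaling. Among diets in jejunum, miR-221 passed for corn stover minus alfalfa hay at 0.43 with DESeq2, 0.48 with edgeR, 0.48 with TMM and 0.33 with upper-quartile scaling, and for rice straw minus corn stover at -0.33, -0.37, -0.37 and -0.24, with no share of all miRNAs beside these calls. miR-222 lost both calls there in the fit of all 90 libraries, at 0.47 and -0.40. In that fit 3 mammary gland differences passed, at 1.002 for miR-222 in corn stover minus alfalfa hay, and at -1.07 for miR-221 and -0.80 for miR-222 in rice straw minus corn stover. Mammary gland shares 1 spread with the other tissues there. The number of all miRNAs called in these contrasts rose in that fit too, as counted below.

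Differences that had not passed changed sign as follows. In duodenum, miR-222 for rice straw minus corn stover was -0.024 with upper-quartile scaling. In mammary gland, miR-221 for corn stover minus alfalfa hay was -0.023 with DESeq2 and -0.065 with upper-quartile scaling, and miR-222 for rice straw minus corn stover was 0.035 with DESeq2, 0.018 with edgeR and 0.036 with upper-quartile scaling. Leaving out the 4 shallow mammary gland libraries, the liver library and the 3 jejunum libraries that stood apart was chosen after seeing the data. Without the 3, the miR-222 difference of rice straw minus corn stover in jejunum was -0.41 and the log2 ratio of duodenum minus jejunum was 0.16, and neither passed. Without the 4, miR-221 in mammary gland was 0.15 for rice straw minus alfalfa hay and 0.0070 for rice straw minus corn stover, the log2 ratio was 0.32 for rice straw minus corn stover, -0.062 for duodenum minus mammary gland and -0.26 for jejunum minus mammary gland, the last of which then passed. The interaction F of miR-222 passed at 2.42 with a pseudocount of 5, 2.72 with upper-quartile scaling, 2.94 with TMM scaling, 2.39 over miRNAs with a mean of at least 10 CPM and 3.16 without the 4 libraries. Of these settings, only upper-quartile scaling was planned for the interaction, and the others were added after seeing the data. The miRNAs that passed under each setting are counted with the interaction above. The correlation lost its call in rumen at 0.56 as deviations from the diet mean and 0.31 without the 2 farthest libraries, in jejunum at 0.41 and 0.42, in liver at 0.50 without the 2 farthest, and in mammary gland at 0.32 with upper-quartile scaling, 0.30 with TMM scaling and 0.49 without the 4 libraries.

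With each library left out in turn, results that changed sign or side of the threshold ranged as follows. For miR-221, corn stover minus alfalfa hay ranged from -0.126 to 0.041 in duodenum, from -0.410 to 0.0088 in liver and from 0.33 to 0.65 in rumen. Its rice straw minus corn stover ranged from -0.101 to 0.0014 in duodenum, from -0.240 to 0.024 in liver, from -1.375 to -0.67 in mammary gland and from -0.093 to 0.042 in rumen, and its rice straw minus alfalfa hay from 0.31 to 0.63 in rumen. For miR-222, rice straw minus alfalfa hay ranged from -0.136 to 0.121 in liver and from -0.203 to 0.60 in mammary gland, and corn stover minus alfalfa hay from 0.40 to 0.63 in rumen. For the log2 ratio, rice straw minus alfalfa hay ranged from -0.420 to -0.330 in duodenum, each with an adjusted p of 0.0649, and from -0.040 to 0.095 in jejunum. Its rice straw minus corn stover ranged from -0.746 to -0.513 in liver and from -0.433 to 0.112 in mammary gland, and its corn stover minus alfalfa hay from -0.185 to 0.019 in rumen.

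Replicate numbers were not shown to pair samples: of 180 same-numbered pairs across tissues, 82 had a correlation of their deviations over 0.1 (range -0.437 to 0.58), short of the condition that each does. Single noisy libraries can miss this condition even where a number marks a cow, so it cannot decide the question. The main tissue tests took the libraries as unpaired. As a hint from the data, 54 correlated best with their own number where chance gives 30, and between duodenum and jejunum 11 of 18 did and 14 of 18 had a correlation over 0.1 (mean 0.197). With the replicate block, the interaction F of miR-222 was 2.46 and passed (limma, adjusted p = 0.0462), beside 133 of 289 miRNAs. The block changed no other call of either miRNA or of the tissue ratio, and moved the miRNAs called between rice straw and alfalfa hay in rumen from 9 to 16.

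Counts of miRNAs called moved by over 1.5 times in these contrasts. Between duodenum and jejunum, limma called 33, against 57 by DESeq2, 92 from the 36 libraries of these tissues and 71 without the 4 libraries. In the fit of all 90 libraries the calls went from 74 to 19 and from 97 to 27 in the jejunum contrasts with corn stover, and in mammary gland from 82 to 161 between rice straw and corn stover and from 0 to 75 and 61 in the other contrasts. With edgeR, TMM and upper-quartile scaling the 82 became 50, 38 and 36. In rumen, rice straw minus alfalfa hay went from 9 to between 14 and 33. Without the 3 jejunum libraries the 74 and 97 became 37 and 35. Depth was low in the 4 shallow mammary gland libraries, in which 3 reads were worth up to 3.20 CPM, and in 3 liver libraries and 1 rumen library with 2004942 to 2944831 reads, in which they were worth up to 1.496 CPM.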
